A study of Arabidopsis thaliana with 12 samples.

Results

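IRX15, IRX15-L and GUT2 are Arabidopsis thaliana genes needed to make the xylan of secondary cell walls. Their loci are AT3G50220 for IRX15, AT5G67210 for IRX15-L and AT1G27440 for GUT2, and each gene was read on 1 probe set of an Affymetrix array. These 3 probe sets were fixed by name out of 22746 tested, with earlier results of these data known. The supplied probe table gives each of them 1 gene, with the same name. GUT2 is also known as IRX10.

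The 12 arrays form 4 groups of 3 biological replicates, each a pool of 13 to 17 stems. They cover wild type (ecotype Columbia) and the wox4-1 mutant, each at the stem base and in the first internode, at 49 to 58 days of age and a stem height of 15 to 20 cm. wox4-1 carries a mutation of WOX4, a homeobox gene that keeps the cambium dividing and thereby thickens the stem, and it is the single mutant allele in these data. All fragments were 0.5 cm long. The internode fragment came from 1.5 to 2.0 cm above the rosette, and both genotypes grew in the same short-day and then long-day regime. WOX4 itself was not analysed here, for lack of a probe set with that name, and its level gives no check of the genotype labels. The replicate pools are labelled biological, and nothing in the labels says which stems or trays they came from.

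Xylan is the main hemicellulose of the secondary walls of xylem vessels and fibres, and these cells make up much of the wood-like tissue of an Arabidopsis stem. Its chain of xylose is built in the Golgi, where IRX10 (GUT2) and its close relative IRX10-L (GUT1) are xylosyltransferases of the backbone and work with the IRX9 and IRX14 proteins. IRX15 and IRX15-L are Golgi proteins of the DUF579 family. Loss of both shortens the xylan chains and deforms xylem vessels, the "irregular xylem" that gave these genes their name, but their own biochemical activity is not settled.

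The values are log2 expression values made by the authors with RMA. This method corrects background, gives the probes of all arrays the same distribution and then summarises the probes of a set. A difference of 1 on this scale is a 2-fold change. Arrays within a group correlated with r of 0.992 to 0.997 across probe sets, and the medians of the arrays lay between 5.56 and 5.71. The 3 wox4-1 base arrays had the lowest medians (5.56, 5.61 and 5.59), against 5.64 or more on all others. For the actin control, a measure of RNA quality, the 3′ end exceeded the 5′ end by a log2 value of 1.22 to 1.51 on 11 arrays and by 2.26 on that of replicate 2 from the wox4-1 internode. Levels of different probe sets are not compared, because probes bind with different strength.

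IRX15 had log2 values of 10.17, 10.06 and 9.94 in wild type at the base (replicates 1 to 3) and 10.75, 10.13 and 10.49 in wox4-1 at the base. In the internode it had 10.23, 10.10 and 10.30 in wild type and 10.33, 10.32 and 10.28 in wox4-1. The wox4-1 base arrays thus held both the highest value and one close to the wild-type ones, and every pair of neighbouring groups overlapped.

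IRX15-L had log2 values of 10.67, 10.74 and 10.61 in wild type at the base and 11.21, 10.93 and 11.03 in wox4-1 at the base. In the internode the values were 10.90, 10.84 and 11.05 in wild type and 11.08, 10.99 and 10.99 in wox4-1. The 3 wild-type base arrays lay below all 9 other arrays, which overlapped among themselves.

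GUT2 had log2 values of 10.05, 9.80 and 9.88 in wild type at the base and 10.29, 10.18 and 10.32 in wox4-1 at the base. In the internode they were 10.19, 10.16 and 10.58 in wild type and 10.48, 10.57 and 10.37 in wox4-1. Again the 3 wild-type base arrays were the lowest of the 12, and the wox4-1 internode arrays lay above all wox4-1 base arrays.

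**Figure D1:**
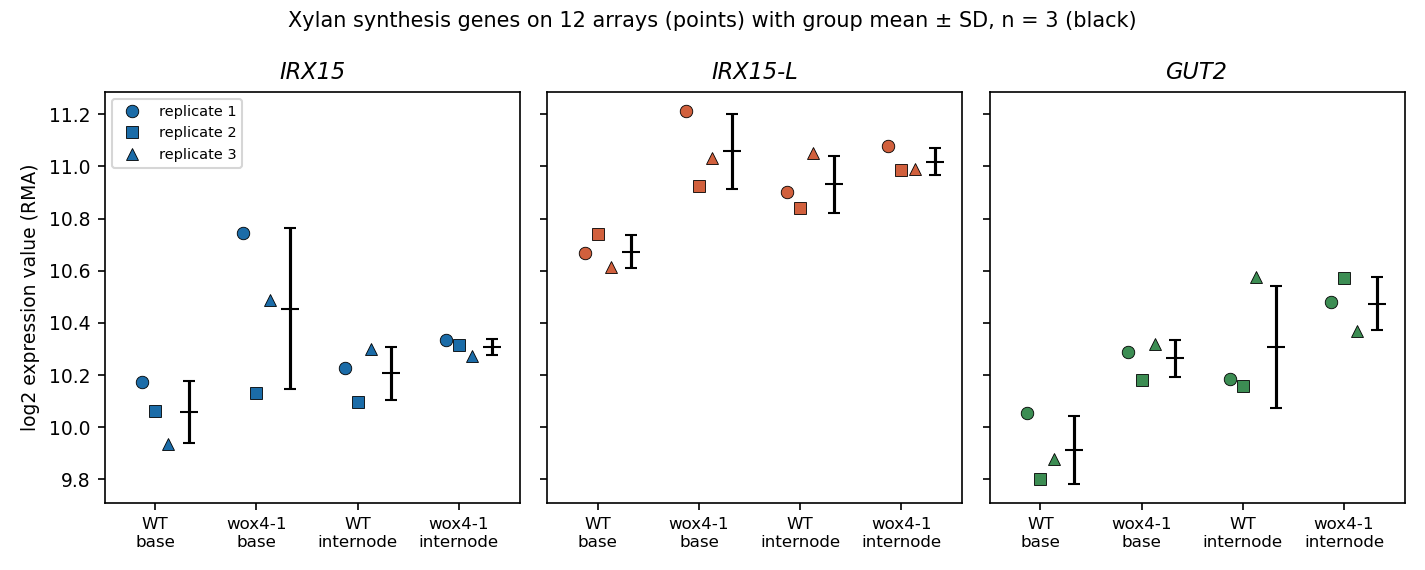
Log2 expression values (vertical axis) of IRX15, IRX15-L and GUT2 on each of 12 arrays, by group (horizontal axis), with the group mean and SD in black (n = 3) and a symbol per replicate number. For IRX15-L and GUT2 the 3 wild-type base arrays lie below the 9 others, and IRX15 spreads most in wox4-1 at the base.

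All 3 genes thus had their lowest mean in the wild-type base. For IRX15 the order of means from high to low was wox4-1 base (10.46, SD 0.31, n = 3), wox4-1 internode (10.31, SD 0.03), wild-type internode (10.21, SD 0.10) and wild-type base (10.06, SD 0.12). IRX15-L followed the same order, with 11.06 (SD 0.15), 11.02 (SD 0.05), 10.93 (SD 0.11) and 10.67 (SD 0.06), and only its lowest step, of 0.26, left no overlap between neighbours. For GUT2 both internode groups came first, with 10.47 (SD 0.10) in wox4-1 and 10.31 (SD 0.23) in wild type, then the wox4-1 base (10.26, SD 0.07) and the wild-type base (9.91, SD 0.13). Here too only the lowest step, of 0.35, was free of overlap. The means of the 4 groups spanned 1.32-fold for IRX15, 1.31-fold for IRX15-L and 1.48-fold for GUT2.

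The first comparison asked how loss of WOX4 function bears on these genes at the base, the older part of the stem. All 3 had a higher mean in wox4-1 than in wild type there, by similar amounts, and IRX15-L was the 1 that passed the test. IRX15-L rose 1.31-fold in wox4-1 (log2 0.38, SE 0.09, 95% interval of the fold 1.14 to 1.49, limma adjusted p 0.0281), and its 3 mutant arrays lay above the 3 wild-type arrays. IRX15 had a ratio of 1.32 (log2 0.40, SE 0.13, interval 1.09 to 1.59, adjusted p 0.0898), and its groups overlapped because wox4-1 replicate 2 lay below wild-type replicate 1. GUT2 had a ratio of 1.28 (log2 0.35, SE 0.11, interval 1.08 to 1.51, adjusted p 0.0915), with no overlap between the groups. Adjusted p-values here and below are Benjamini-Hochberg values over all 22746 probe sets, and a gene is called at an adjusted p under 0.05.

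As a background, 2.52% of all probe sets were called higher in wox4-1 at the base, and 13.3% had mutant arrays that all lay above the wild-type arrays, as 2 of the 3 genes did. A log2 difference at least as large as that of IRX15 was seen in 2.78% of probe sets, with 3.09% for IRX15-L and 3.93% for GUT2. The median over all probe sets was 0.02. The 3 genes thus lay in the upper tail of the distribution, though not at its end. They were chosen with earlier results of these data known, so these shares describe them and test nothing. The stem fragments hold many tissues, so a change in the number of xylem and fibre cells and a change in RNA per cell cannot be told apart in any comparison here.

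**Figure D2:**
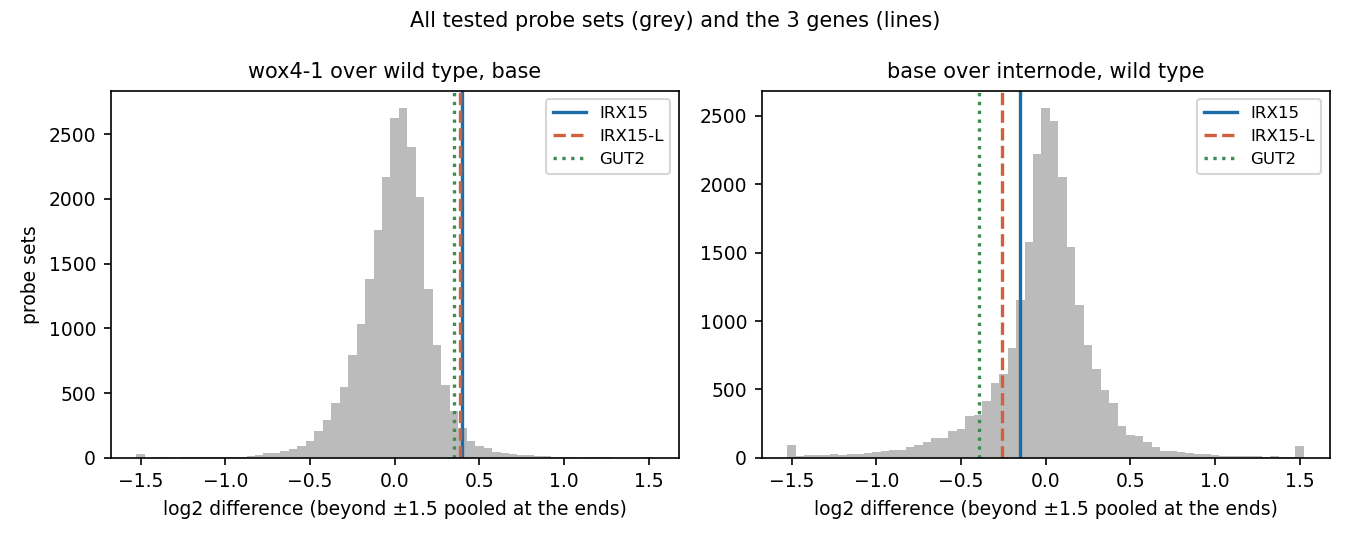
Number of probe sets (vertical axis) by log2 difference (horizontal axis, values beyond 1.5 pooled in the end bins) for wox4-1 over wild type at the base and for base over internode in wild type, with the 3 genes as lines. At the base the lines stand close together, between 0.35 and 0.40, and along the stem they spread from -0.39 to -0.15.

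The call of IRX15-L rested on every wild-type base array. Its adjusted p was 0.0778 without wild-type base replicate 1, 0.0681 without replicate 2, 0.0886 without replicate 3, 0.0677 without wox4-1 base replicate 1 and 0.0647 without wox4-1 base replicate 3, and 0.0922 when only the base arrays were fitted. In the other direction, IRX15 was called without wox4-1 base replicate 2 (log2 0.56, adjusted p 0.0119), and GUT2 without wild-type internode replicate 3 (adjusted p 0.0437) or with each array centred on its median (log2 0.41, adjusted p 0.0468).

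The actin control and the cortex photosynthesis markers also differed in mean between genotypes at the base, while the summed cambium markers overlapped. The wild-type arrays had a 3′ to 5′ actin difference of 1.47 (SD 0.04, n = 3), and the mutant arrays one of 1.29 (SD 0.06). Of the 5 cortex photosynthesis markers fixed for this tissue, 4 had a probe set, and all 4 had a higher mean in wox4-1, with none called. Their summed level was log2 13.32 to 13.42 on the wild-type base arrays and 13.45 to 13.67 on the mutant ones. Of the 7 cambium markers 3 had a probe set, namely CLE41, CLE44 and MOL1, with a summed level of log2 9.86 to 9.94 in wild type and 9.87 to 10.14 in wox4-1. CLE41 and CLE44 were also listed as phloem markers, so this sum is not one of cambium alone. The 3 markers did not move alike between genotypes. CLE44, which encodes a peptide signal to the cambium, rose by 0.48 in the mutant (SE 0.11, limma adjusted p 0.0275) but was not called without any 1 of the wild-type base arrays or wox4-1 base replicate 1. CLE41, for a like peptide, differed by 0.13 (SE 0.09, adjusted p 0.433), and the receptor kinase gene MOL1 by -0.29 (SE 0.11, adjusted p 0.154), with mutant arrays below the wild-type ones. The lowest value of any cambium marker on an array was 6.12 and of any cortex marker 8.35, and their part in the xylan genes' differences was not tested.

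In the first internode the same genotype comparison gave smaller differences, and none of the 3 genes was called by limma, nor did any reach an unadjusted p under 0.05. The background there was low, since only 0.242% of probe sets were called in either direction. The log2 difference of wox4-1 over wild type was 0.10 for IRX15 (SE 0.13, 95% interval -0.17 to 0.37), 0.09 for IRX15-L (SE 0.09, -0.11 to 0.28) and 0.17 for GUT2 (SE 0.11, -0.08 to 0.41). Mutant and wild-type arrays overlapped for each gene. These intervals reach folds of 1.30, 1.21 and 1.33, so the data do not show that the genotypes are alike in the internode. They use 1 variance per gene shared by all 4 groups. IRX15 spread more in the wox4-1 base (SD 0.31) than in the wild-type (0.10) or wox4-1 internode (0.03), so its interval also carries the spread at the base.

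Whether the genotype effect was larger at the base than in the internode was tested directly. The difference between the effects was 0.30 for IRX15 (SE 0.18, limma adjusted p 0.691), 0.30 for IRX15-L (SE 0.13, unadjusted p 0.0345, adjusted p 0.593) and 0.19 for GUT2 (SE 0.16, adjusted p 0.777). No gene of the 3 was called, on a background of 0.00440% of probe sets, and the larger effect at the base is therefore not established. An unadjusted p under 0.05 by limma, as for IRX15-L, was seen in 1827 of 22746 probe sets. Averaged over both positions, the log2 genotype effect was 0.25 for IRX15 (SE 0.09, adjusted p 0.131), 0.24 for IRX15-L (SE 0.06, adjusted p 0.0460) and 0.26 for GUT2 (SE 0.08, adjusted p 0.0788). IRX15-L was the 1 called, beside 2.89% of all probe sets called higher. That call ended on leaving out any 1 of 10 arrays, all but wox4-1 base replicate 2 and wild-type internode replicate 3, with adjusted p up to 0.122. The average counts base and internode arrays as independent. Same-numbered wild-type arrays shared deviations from their group means (r 0.29 to 0.59), which can make the SE of the average too small. No fit of the average with such pairs as the unit was run.

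**Figure D3:**
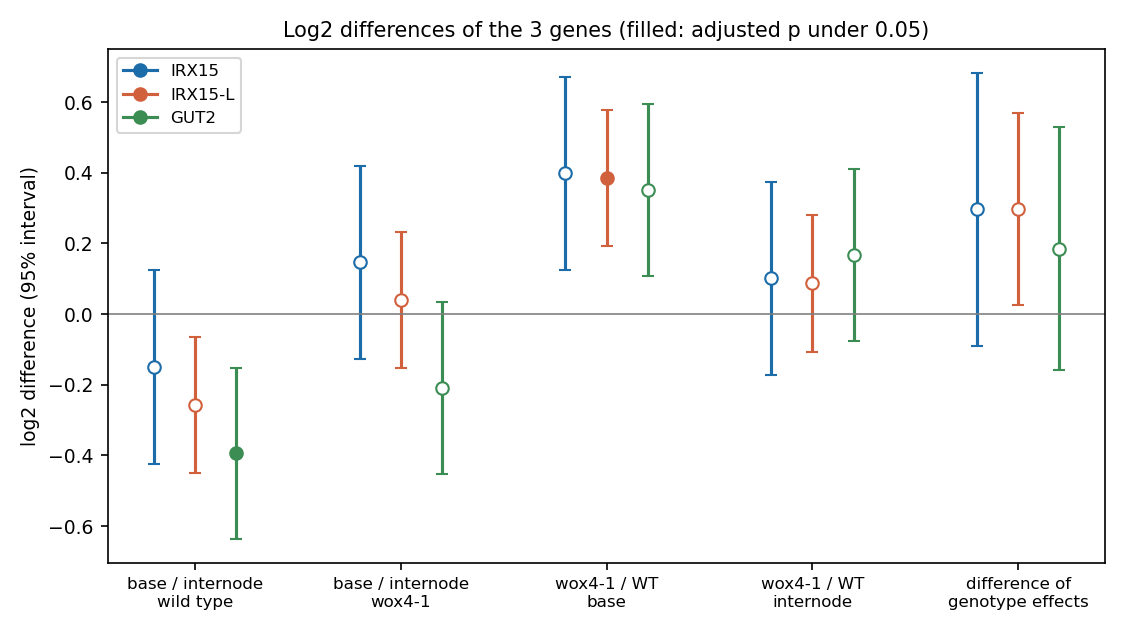
Log2 differences with 95% intervals (vertical axis) of the 3 genes in the 4 comparisons between groups and in the difference between the genotype effects (horizontal axis), with filled symbols for an adjusted p under 0.05. Filled symbols are GUT2 for base over internode in wild type (-0.39) and IRX15-L for wox4-1 over wild type at the base (0.38).

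The next comparison followed the genes along the wild-type stem, from the first internode to the base. GUT2 fell to 0.76 of its internode level at the base (log2 -0.39, SE 0.11, 95% interval of the ratio 0.64 to 0.90, limma adjusted p 0.0248), and its 3 base arrays lay below the 3 internode arrays. IRX15-L had a ratio of 0.84 (log2 -0.26, SE 0.09, interval 0.73 to 0.96, adjusted p 0.0598) and likewise no overlap. IRX15 had a ratio of 0.90 (log2 -0.15, SE 0.13, interval 0.75 to 1.09, adjusted p 0.490), with overlapping arrays. Called lower at the wild-type base were 10.1% of all probe sets, and 18.6% had base arrays that all lay below the internode arrays, as 2 of the 3 genes did.

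GUT2 was no longer called once wild-type base replicate 2 (adjusted p 0.103) or 3 (0.0733) was dropped. The same held for wild-type internode replicate 3 (log2 -0.26, adjusted p 0.109), on which GUT2 was highest. IRX15-L was called when dim probe sets were left out (adjusted p 0.0420), under another moderation of the variance (0.0299), and without wox4-1 base replicate 1 (0.0281) or 2 (0.0485). This comparison and the one between genotypes at the base share the wild-type base arrays, so a low value on those 3 arrays enters both.

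In wox4-1 none of the 3 genes was called between base and internode, and none reached an unadjusted p under 0.05, although 24.5% of all probe sets were called there. GUT2 had a ratio of 0.86 (log2 -0.21, SE 0.11, 95% interval 0.73 to 1.02, limma adjusted p 0.198), and its base arrays again lay below the internode arrays, as did those of 17.6% of probe sets. IRX15-L had a ratio of 1.03 (log2 0.04, SE 0.09, adjusted p 0.785) and IRX15 of 1.11 (log2 0.15, SE 0.13, adjusted p 0.435), both with overlapping arrays. IRX15 was called higher at the mutant base without wox4-1 base replicate 2 (log2 0.31, adjusted p 0.0479). The test of the difference between the position effects is the one given above for the genotype effects, and it called none of the 3 genes.

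Averaged over both genotypes, GUT2 fell at the base to 0.81 of its internode level (log2 -0.30, SE 0.08, 95% interval 0.72 to 0.91, limma adjusted p 0.00951), on a background of 17.1% of probe sets called lower. This call held on leaving out each of the 12 arrays in turn, with adjusted p from 0.00728 to 0.0275. The average was -0.11 for IRX15-L (SE 0.06, adjusted p 0.212) and 0.00 for IRX15 (SE 0.09, interval -0.19 to 0.19, adjusted p 0.992).

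The cortex photosynthesis markers moved along the stem in the same direction as GUT2. All 4 measured ones, namely the Calvin cycle genes SBPASE, PRK and RCA and the antenna gene LHCB4.1, fell at the base in wild type (log2 -1.19, -0.98, -0.78 and -0.49) and in wox4-1. Their summed level was log2 14.00 to 14.13 on the wild-type internode arrays and 14.05 to 14.22 on the mutant ones, above the base ranges given before. The cambium markers include CLE41 and CLE44, which were also listed for phloem. They summed to log2 9.55 to 9.70 in the wild-type internode and 9.57 to 9.77 in the mutant one, below their base ranges. Of these markers MOL1 rose at the wild-type base by 0.62 (SE 0.11, adjusted p 0.00160) and CLE41, the brightest part of the sum, by 0.27 (SE 0.09, adjusted p 0.0486), though under 11 of 19 alternatives CLE41 was not called. CLE44 differed by -0.19 (SE 0.11, adjusted p 0.286), with base arrays below the internode arrays. What these shifts in tissue markers contribute to the fall of GUT2 was not tested.

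In their means IRX15 and GUT2 differed in how they followed position, a difference that was not tested. It is also seen in ratios within each array, where the scaling of the array cancels. The log2 ratio of IRX15 to GUT2 was higher at the base than in the internode by 0.30, averaged over genotypes. It ran from -0.05 to 0.46 on the 6 base arrays and from -0.28 to 0.04 on the 6 internode arrays, so the positions overlapped. For IRX15-L against GUT2 the shift was 0.19, and for IRX15 against IRX15-L it was 0.11. Between genotypes the 3 shifts lay between -0.02 and 0.01. These ratios were looked at after the difference had been seen, so no test of them is given.

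The spread between replicates ran alike in the paralogues in 2 of the 4 groups. In wox4-1 at the base, IRX15 deviated from its group mean by 0.29, -0.32 and 0.03 on replicates 1 to 3, and IRX15-L by 0.16, -0.13 and -0.02, whereas GUT2 deviated by 0.02, -0.08 and 0.06. Replicate 1 was thus the highest and replicate 2 the lowest of that group for both DUF579 genes. In the wild-type internode replicate 3 was highest and replicate 2 lowest for all 3 genes, with GUT2 at 0.27 and -0.15. In the wild-type base the orders differed, with IRX15 at 0.12, 0.00 and -0.12 and IRX15-L at -0.01, 0.07 and -0.06, and in the wox4-1 internode the deviations of both ran from -0.03 to 0.06. Over the 12 arrays the deviations from group means correlated with r of 0.84 between IRX15 and IRX15-L, against 0.48 between each of them and GUT2. Other genes, picked because their values ran most like those of IRX15, shared its deviations more closely than IRX15-L did. For them r was 0.91 (SAH7), 0.94 (AT4G32470), 0.93 (AT2G03200), 0.88 (AT4G19140) and 0.89 (AT3G07950). For the genes picked likewise for IRX15-L, r with its deviations ran from 0.726 to 0.842, none above the 0.843 of IRX15. Shared deviations of about this size were thus not particular to the paralogues, though only IRX15 had picked genes that shared them more closely. These r values and deviations are descriptions over 12 arrays that share scaling and RNA preparation.

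**Figure D4:**
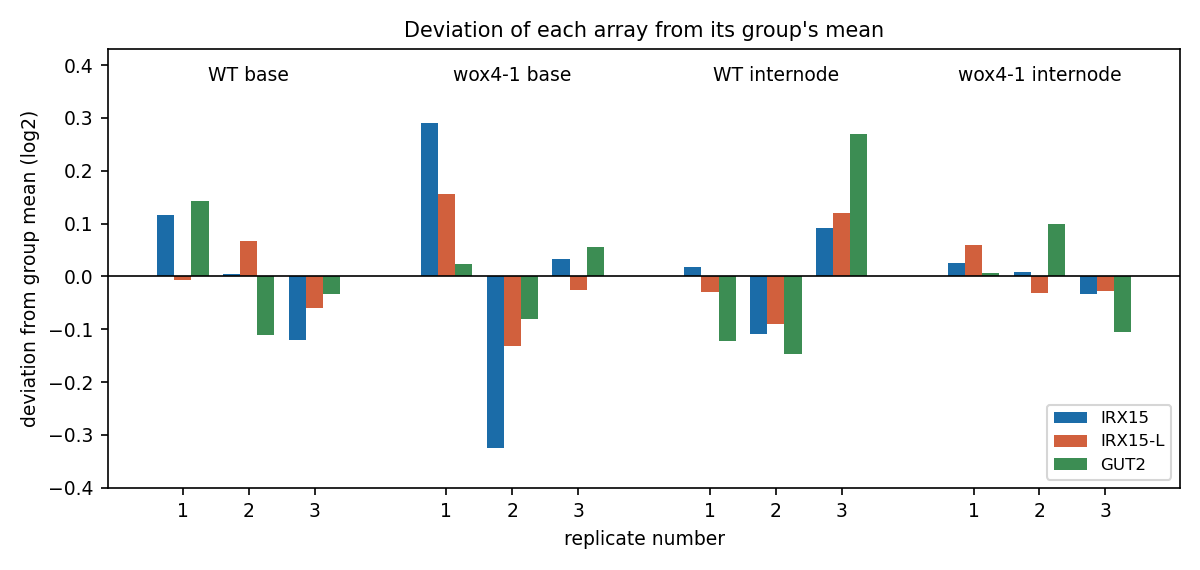
Deviation of each array from the mean of its group (vertical axis, log2) for the 3 genes, by group and replicate number (horizontal axis). The largest bars are those of IRX15 in wox4-1 at the base, 0.29 on replicate 1 and -0.32 on replicate 2, where IRX15-L points the same way.

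Most of the xylan pathway could not be followed, because the supplied probe table names probe sets for only 11 of the 45 listed xylan genes, the 3 described here and 8 others. Probe sets of IRX9, IRX14, FRA8, PARVUS, IRX8 and of the UXS enzymes of UDP-xylose synthesis, among others, were not analysed here. At the base, 1 of the 8 others was called higher in wox4-1, where 2.52% of all probe sets were, and none lower, and 6 of 8 had a higher mean (median log2 0.09, against 0.02 for all probe sets). Between base and internode in wild type 1 of the 8 was called higher, against 9.60% of all probe sets, and none lower (median -0.09, against 0.01 for all).

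GUT1, the backbone xylosyltransferase closest to GUT2, was not called in any of the 4 comparisons between groups. Its means were 8.32 (SD 0.15, n = 3) in the wild-type base, 8.38 (SD 0.02) in the wox4-1 base, 8.37 (SD 0.11) in the wild-type internode and 8.55 (SD 0.04) in the wox4-1 internode. Its genotype difference was 0.06 at the base (SE 0.09, limma adjusted p 0.739) and 0.17 in the internode (SE 0.09, adjusted p 0.675), and its position difference in wild type was -0.06 (SE 0.09, adjusted p 0.741). In wox4-1 its position difference was -0.17 (SE 0.09, limma adjusted p 0.179). Its wox4-1 base arrays lay below the internode arrays, as did those of GUT2 and of 17.6% of probe sets. In the internode its mutant arrays lay above its wild-type arrays, as did those of 7.89% of probe sets.

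Xylan is acetylated in the Golgi by proteins of the TBL family. TBL28, a member of that family, rose in wox4-1 at the base by 0.31 (SE 0.08, limma adjusted p 0.0394), from a mean of 6.80 (SD 0.08, n = 3) to 7.11 (SD 0.07), with no overlap. That call ended on leaving out any 1 of 8 arrays (adjusted p up to 0.127). Averaged over both positions TBL28 rose by 0.27 (SE 0.05, adjusted p 0.0109), and it stayed called on leaving out each array. As for the 3 genes, this average counts base and internode arrays as independent. At the base TBL30 differed by 0.12, TBL34 by 0.07, TBL32 by -0.18 and TBL35 by -0.24, none of them called. The probe set of TBL32 has a suffix that marks probes shared between transcripts. TBL35 rose at the wild-type base over the internode by 0.39 (SE 0.11, adjusted p 0.0258), a direction opposite to that of GUT2, but not without any 1 of 5 wild-type arrays. TBL32 fell at the wox4-1 base by 0.51 (SE 0.12, adjusted p 0.00672), where 13.0% of all probe sets were called lower.

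AT2G30460 and AT1G06890 encode transporters that carry UDP-xylose, the donor of the backbone, into the Golgi. Neither was called in any of the 4 comparisons between groups. At the base their log2 differences of wox4-1 over wild type were 0.22 (SE 0.09, limma adjusted p 0.196) and 0.18 (SE 0.08, adjusted p 0.216). Mutant arrays lay above wild-type arrays for both, as they did for 13.3% of all probe sets. In the internode the differences were -0.04 and 0.03.

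**Figure D5:**
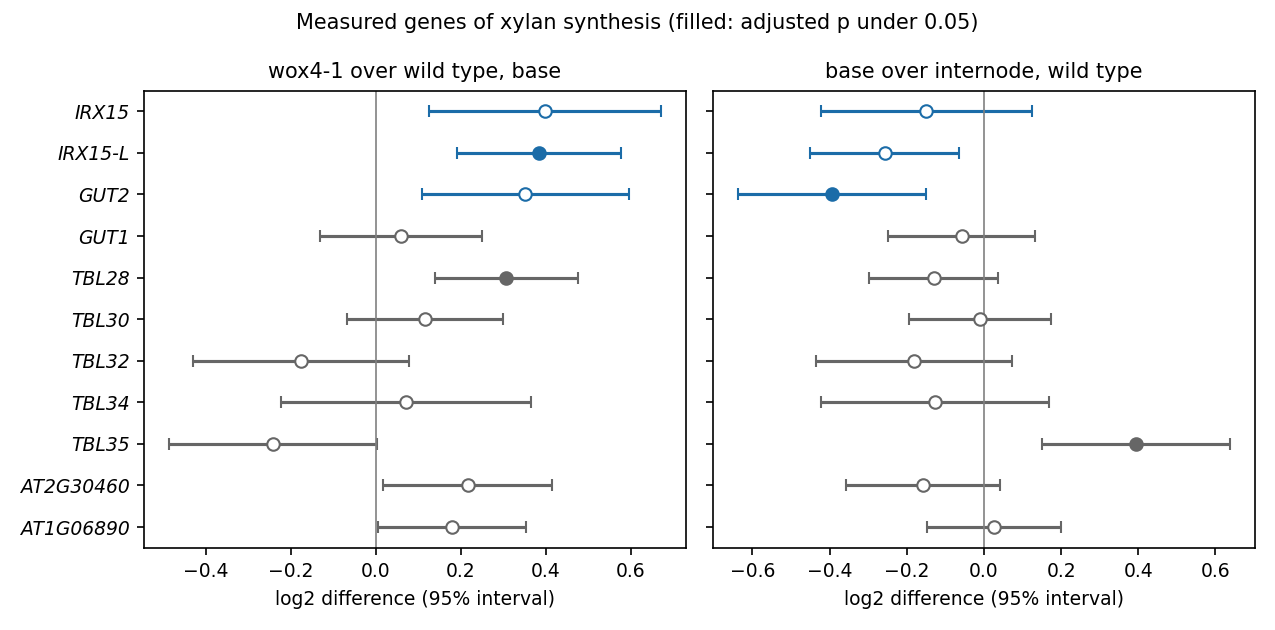
Log2 differences with 95% intervals (horizontal axis) of the 11 measured genes of xylan synthesis (vertical axis) for wox4-1 over wild type at the base and for base over internode in wild type, with the 3 main genes in blue and filled symbols for an adjusted p under 0.05. TBL28 and IRX15-L are filled on the left, and GUT2 and TBL35, which point in opposite directions, on the right.

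Other DUF579 genes were measured too. AT1G27930 and AT1G67330, which encode methyltransferases of arabinogalactan rather than proteins of xylan synthesis, differed between genotypes at the base by 0.09 (SE 0.11, limma adjusted p 0.669) and 0.05 (SE 0.10, adjusted p 0.804). Neither was called in any of the 4 comparisons. The probe set of AT1G67330 was dim, with group means of 3.61 to 3.69, so no direction is read from it.

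Genes known for expression together with the cellulose synthases of the secondary wall gave a wider setting. Of the 19 genes on this list, all with a probe set, 11 fell at the wild-type base and none rose (median -0.32, against 0.01 for all probe sets), where 10.1% of all probe sets were called lower and 9.60% higher, and 7 fell without wild-type internode replicate 3. The largest falls were those of AT4G08160, which encodes a xylanase-like glycosyl hydrolase (log2 -0.96, SE 0.15, limma adjusted p 0.000403), the kinase gene AT1G56720 (-0.96, SE 0.11), AT1G58070 (-0.75, SE 0.15) and AT3G23090, for a microtubule protein (-0.69, SE 0.09). In wox4-1 6 of the 19 fell at the base and none rose (median -0.28, against 0.04 for all), where 13.0% of all probe sets were called lower. The 6 became 10 when dim probe sets were left out or with trended and robust moderation. AT4G08160 (-0.89), AT1G56720 (-0.71), AT3G23090 (-0.69) and AT1G09440 (-0.67) fell most. The fall of GUT2 at the wild-type base had the direction of the called genes of this list. The list was made with earlier results of these data and the coverage of the probe table in view. Its counts are therefore a description and no support for the fall of GUT2.

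Between genotypes at the base, 1 of the 19 rose in wox4-1, where 2.52% of all probe sets did, a count too small to set the list apart. It was AT1G72220, which encodes a RING-type ubiquitin ligase (log2 0.39, SE 0.10, limma adjusted p 0.0438), and its call ended on leaving out any 1 array but wox4-1 base replicate 2. Of the 19, 16 had a higher mean in the mutant (median 0.14, against 0.02 for all probe sets). In lignin synthesis, HCT was the measured gene of 17 listed. Its genotype difference at the base was 0.03 (SE 0.10, adjusted p 0.910), and its position difference was -0.22 in wild type (SE 0.10, adjusted p 0.179) and -0.27 in wox4-1 (SE 0.10, adjusted p 0.0718).

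The genes whose values ran most like those of each xylan gene were found by Pearson's r over the 12 arrays among 5484 other named probe sets with a mean of at least 6. For IRX15 they were SAH7 (r 0.93), AT4G32470 (0.92), AT2G03200 (0.92), AT4G19140 (0.90) and AT3G07950 (0.89). None of these 5 was called between genotypes at the base, where their log2 differences were 0.11 to 0.31. IRX15-L came 15th in that order, with r of 0.87.

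For IRX15-L the nearest were AT4G26790 (r 0.95), GSTU18 (0.93), AT3G05280 (0.93), SWEET2 (0.92) and AT2G03200 (0.91), which was near IRX15 as well. Of these, 3 were called higher in wox4-1 at the base, namely AT4G26790 by 0.50, the glutathione transferase gene GSTU18 by 0.43 and SWEET2, for a vacuolar sugar transporter, by 0.60. The call of SWEET2 held in all 18 alternatives, that of AT4G26790 ended in 4 (adjusted p up to 0.0949) and that of GSTU18 in 3 (up to 0.0881). For GUT2 they were AT3G54040 (r 0.97), GH9B5 (0.96), AT5G47635 (0.95), AT1G20070 (0.95) and GH9B7 (0.95). GH9B5 and GH9B7 encode members of the family of endoglucanases that act on cellulose. All 5 fell at the wild-type base, by 0.38 to 1.05 on the log2 scale, and 4 of them, all but GH9B5, rose in wox4-1 at the base. At the base the genotype calls ended in 10 of 18 alternatives for GH9B7, 7 for AT3G54040, 6 for AT1G20070 and 1 for AT5G47635, and the position call of GH9B5 ended in 6 of 19. The background was 2.52% of probe sets called higher in wox4-1 and 10.1% called lower at the wild-type base. These genes were picked for following the 3 xylan genes over the same arrays, so their counts support nothing further. Since the 12 arrays form 4 groups, these r values reflect group differences as well as the spread within groups, and no test was made on them.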

How the data were processed

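Total RNA from stem fragments was labelled with biotin and hybridised to Affymetrix arrays. The authors deposited log2 expression values per probe set, made with RMA per the submitters' processing notes, whose version is not given in the sources used here. The table holds 22810 probe sets on 12 arrays, of which 64 controls were set aside. The probe table gives 13513 probe sets 1 gene, 503 several genes and 8730 none here.

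The log2 values were used as deposited. One mean per group was fitted with limma 3.58.1 (R 4.3.3, lmFit and eBayes) over all 12 arrays, for 7 contrasts, and p-values were adjusted by Benjamini-Hochberg over 22746 probe sets. The code of the fit was run on simulated data, with independent arrays and larger added shifts than the differences of the 3 genes. That run checks the code and not the p-values given here. With arrays, 3 replicates per group limit the precision, and p-values measure the spread between these pools.

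The 3 genes and all lists were chosen with earlier results of these data known. The 19 co-expressed genes were listed with the coverage of the probe table in view. The text names the 3 genes, every measured xylan gene, up to 4 called genes of other lists per contrast (or those with the smallest p), and the 5 probe sets most like each gene. AT1G27930 and AT1G67330 were named as the remaining measured DUF579 genes.

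Equal replicate numbers paired the wild-type base and internode arrays: the deviations of same-numbered arrays from their group means correlated with r of 0.29 to 0.59 in all 3 pairs. In wox4-1 2 of 3 pairs were over 0.1 (-0.05 to 0.24), and between genotypes r was -0.06 to 0.06. Alternatives were median centring, a filter on probe sets with a mean under 5, trended and robust variance moderation, fitting only the groups compared, replicate blocks, and leaving out arrays. No sequences are shown, since none were used here.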

Additional observations from a re-analysis of the deposited data

How the results depend on the processing

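The 3 genes' differences kept their direction under every alternative, except the near-zero average position effect of IRX15 (0.056 with median centring, and -0.074 to 0.079 on leaving out 1 array) and the position effect of IRX15-L in wox4-1 (-0.038 to 0.11 on leaving out 1 array). With median centring GUT2 was called between genotypes at the base (log2 0.41) and on average (0.29), and 7 probe sets differed in the genotype effects instead of 1. Without dim probe sets IRX15-L was called between base and internode in wild type (-0.26), and 0 probe sets differed in the genotype effects by limma (1065 of 12920 at an unadjusted p under 0.05). With trended and robust moderation IRX15-L was called there too (-0.26), GUT2 was called for the average genotype effect (0.26), and 88 probe sets were called between genotypes in the internode instead of 55 and 7 for the difference. Fitting only the groups compared ended the calls of GUT2 along wild type (-0.39) and of IRX15-L at the base (0.38), and left 403 probe sets called at the base instead of 1146. Without both wild-type replicate 2 arrays these 2 calls ended as well (-0.41 and 0.42), as did that of IRX15-L for the average genotype effect (0.23). The counts were then 2435 of 4485 along wild type, 282 at the base, 25 in the internode and 482 of 1292 for the average. With the replicate block across all groups IRX15-L lost its call for the average genotype effect (0.24, adjusted p 0.0543) and 3 probe sets differed in the genotype effects. With the block within each genotype, which was added after the data had been seen, 5 did, and no other call of the 3 genes changed under either block. The block within each genotype gives no genotype effect at a position or on average.

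On leaving out 1 array, the log2 difference at the base ranged from 0.25 to 0.56 for IRX15, 0.31 to 0.45 for IRX15-L and 0.30 to 0.42 for GUT2, and the average genotype effect from 0.18 to 0.33, 0.20 to 0.27 and 0.22 to 0.33. The wild-type position difference ranged from -0.30 to -0.20 for IRX15-L and -0.47 to -0.26 for GUT2, and that of IRX15 in wox4-1 from 0.0012 to 0.31. The probe sets called numbered 342 to 1459 at the base. Dropping replicate 1, 2 or 3 of the wild-type base left 548, 342 or 650, and dropping the third mutant base array left 609. In the internode 20 to 110 were called, with 110 when the first mutant base array was dropped, 22 and 20 for the first 2 wild-type internode arrays and 28, 30 and 20 for the 3 mutant ones. For the difference 0 to 3 were called, and for the average genotype effect 753 to 1428, with 753 for wild-type base replicate 2, 851 and 823 for wild-type internode replicates 1 and 2 and 780 for wox4-1 internode replicate 1. Why calls moved was not tested, beyond the fewer arrays or probe sets that each such fit holds. The average position effect of GUT2 stayed called under all 18 alternatives.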
